A study of Mus musculus with 36 samples.

Results

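Lungs of NNK-treated A/J mice at weeks 3 and 6 were compared with lungs of untreated A/J mice of the same weeks. NNK is a nitrosamine of tobacco smoke. The comparison used 8 of the 36 arrays of the series, chosen by strain, treatment and week: 2 arrays of untreated A/J lung at week 3, 2 at week 6, 2 of NNK-treated A/J lung at week 3 and 2 at week 6. Treated mice had received weekly NNK injections of 100 mg/kg over 4 weeks, and the labels do not say whether weeks were counted from the first or the last injection. Age, sex and any sham injection of the untreated mice are not given in the sources used here. Total RNA of whole lung was hybridised to Affymetrix Mouse Gene 1.0 ST arrays, which carry several probes for most annotated genes. Nothing in the labels states that both arrays of a group were made from different animals. The p-values therefore reflect the spread among these arrays alone, and that spread may be technical. In whole lung, fewer cells of a type and less RNA per cell cannot be told apart.

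NNK is turned by lung and liver enzymes into products that alkylate DNA. DNA damage stabilises the transcription factor p53, which switches on genes that stop the cell cycle, repair DNA or start cell death. A/J mice are prone to lung tumours after NNK, and such tumours arise from the distal airway and alveolar epithelium. C3H mice, used below as the second strain, are more resistant.

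Levels are log2(intensity + 16) after quantile normalization, and a change is the mean of NNK minus the mean of untreated arrays on that scale, with week as a block. A change of 1 is a doubling, and changes of dim genes are understated. The median deposited intensity of the 8 arrays lay between 295 and 341. The lung markers were high throughout: the mean level of 21 alveolar type 2 genes lay between 12.08 and 12.34 and that of 14 club cell genes between 11.20 and 11.57.

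Several of the 8 arrays stood apart. Both untreated week 6 arrays carried genes of cornified skin, with Lor at 12.74 and 13.59, whereas the other 6 arrays had Lor between 6.82 and 7.22. Array 2 of untreated week 3 had high mesothelial genes, with the joint-lubricant gene Prg4 at 11.30 against 7.14 to 8.61 in the other 7. Array 1 of NNK week 6 had the highest mean level of 31 proliferation genes, 9.54, of 14 neutrophil genes, 9.45, and of 2 erythroid genes, 11.89. Each of these 3 means lay above the whole range of the 28 arrays outside the comparison, whose highest values were 9.11, 8.82 and 10.59. Genes of the circadian clock differed by week in both treatments, with a list mean of 9.29 to 9.63 at week 3 and 10.17 to 10.34 at week 6, which the week block takes up.

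**Figure D1:**
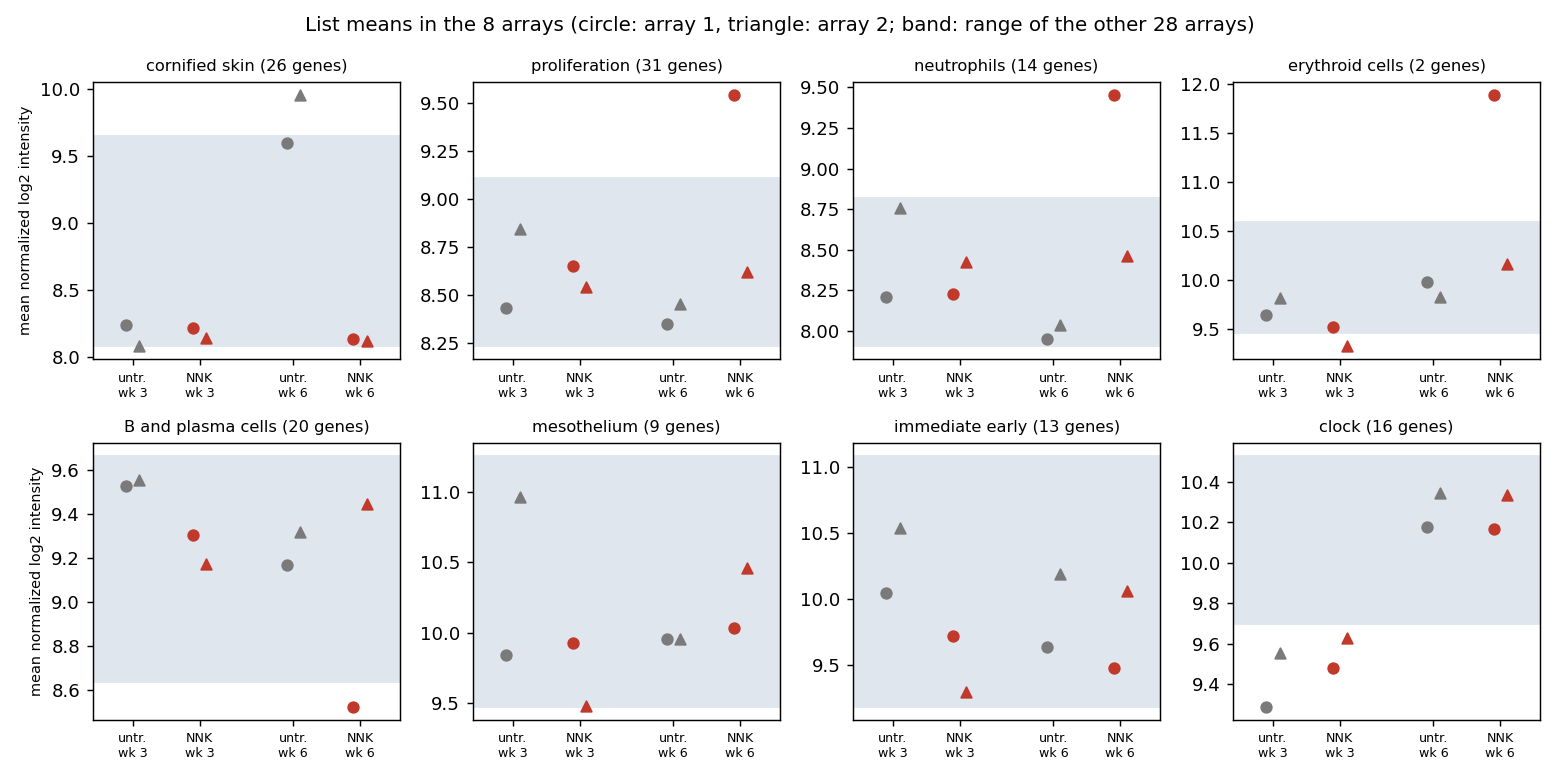
Mean normalized log2 intensity of 8 gene lists (vertical axis) in each of the 8 arrays, grey for untreated and red for NNK, circles for array 1 and triangles for array 2; the shaded band is the range of the other 28 arrays of the series. The skin list is high in both untreated week 6 arrays, and array 1 of NNK week 6 lies above the band for proliferation, neutrophil and erythroid genes and below it for B and plasma cell genes.

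Of 14953 genes tested, 11 rose with NNK and 0 fell at an adjusted p under 0.05 (limma, Benjamini-Hochberg), which is 0.0736% of the genes. All 11 were higher at both weeks, and in all 11 the 4 NNK arrays lay above the 4 untreated arrays. Such a separation was found in 450 genes, 3.01% of those tested, and the reverse, with all NNK arrays below, in 137 genes, 0.916%. At an unadjusted p under 0.05 there were 1279 genes, 8.55%, of which 916 (6.13%) were higher and 363 (2.43%) lower. The median change over all genes was 0.02, and 58.5% of all genes tested were higher, which is the background for the counts of higher and lower genes in the lists. The same differences judged against the spread of all 18 A/J arrays (9 groups of treatment and week) gave 131 genes, 0.876%, with 108 higher (0.722%) and 23 lower (0.154%), among them 10 of the 11. The count of 11 rests on single arrays: it became 4 without untreated week 3 array 1, 94 without untreated week 3 array 2, 0 and 1 without untreated week 6 arrays 1 and 2, 0 and 1 without NNK week 3 arrays 1 and 2, and 2 and 0 without NNK week 6 arrays 1 and 2. In the 18-array fit the count was 83 and 559 without untreated week 3 arrays 1 and 2, 44 without untreated week 6 array 1, 67 and 46 without NNK week 3 arrays 1 and 2, and 219 without NNK week 6 array 2. The sizes of the 11 changes moved little, that of Retnla between 1.77 and 2.03 when any 1 array was left out.

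Genes that p53 is known to induce made up 5 of the 11. Psrc1, a microtubule-binding protein of the mitotic spindle, stood at 7.70, 7.96, 7.93 and 7.75 in the untreated arrays (week 3, then week 6) and at 8.75, 8.91, 9.43 and 8.99 in the NNK arrays. The lowest NNK array was thus clearly above the highest untreated one, and the change was 1.19 (SE 0.12, adjusted p = 0.0180), a 2.27-fold difference. Dglucy, D-glutamate cyclase of mitochondria, rose from 8.65 ± 0.12 to 9.45 ± 0.10 (SD, n = 4 each), by 0.80 (SE 0.08, adjusted p = 0.0180). Phlda3, a small lipid-binding protein that restrains the kinase Akt, measured 9.89, 10.10, 10.23 and 10.18 untreated and 10.67, 10.70, 10.93 and 10.83 with NNK. Its untreated level differed between the weeks by less than the treatment did, and the change was 0.68 (SE 0.07, adjusted p = 0.0180). Ccng1, cyclin G1, an atypical cyclin in the p53 feedback circuit, lay between 11.85 and 12.07 in untreated arrays and between 12.43 and 12.59 with NNK, a rise of 0.60 (SE 0.07, adjusted p = 0.0262). Rps27l, a ribosomal protein S27 relative, had the tightest groups, 10.75 ± 0.04 and 11.20 ± 0.07 (SD, n = 4 each), and rose by 0.45 (SE 0.06, adjusted p = 0.0372). Rps27l was not on the p53 list described below, which held 4 of the 11 and 32 of all 14953 genes tested.

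The other 6 risers are genes of secreted proteins, detoxification and signalling. Retnla encodes a small secreted protein made by alternatively activated macrophages and by airway and alveolar epithelium. It stood at 10.52, 10.75, 10.21 and 9.85 in untreated arrays and at 12.31, 12.11, 12.44 and 12.13 with NNK. No untreated array came within 1 log2 unit of an NNK array, and the change of 1.92 (SE 0.16, adjusted p = 0.00868), 3.77-fold, was the largest of the 11. Chia1, the acidic chitinase of the lung, measured 10.99, 10.74, 10.87 and 10.73 untreated and 11.64, 11.44, 11.52 and 11.42 with NNK, a rise of 0.67 (SE 0.08, adjusted p = 0.0262) that was alike at week 3, 0.68, and week 6, 0.67. Cxcl17, a chemokine of mucosal surfaces, rose from 9.87 ± 0.16 to 10.59 ± 0.09 (SD, n = 4 each), by 0.72 (SE 0.09, adjusted p = 0.0307). Gsto1, a glutathione transferase of the omega class, measured 10.44, 10.72, 10.72 and 10.70 untreated and 11.12, 11.34, 11.39 and 11.50 with NNK. The change was 0.69 (SE 0.08, adjusted p = 0.0262), and the lowest untreated value, at week 3, stood apart from the other 3. Plcd4, a phospholipase C of the delta class, rose by 1.14 (SE 0.14, adjusted p = 0.0262), from 7.06 ± 0.25 to 8.20 ± 0.19 (SD, n = 4 each). Prrg4, a membrane protein with a vitamin K-dependent domain, was lower at week 6 than at week 3 in both treatments. It measured 7.69 and 7.77 against 8.28 and 8.38 at week 3, and 7.21 and 7.45 against 7.83 and 8.09 at week 6. Its change of 0.62 had an adjusted p of 0.0469 with 8 arrays and 0.0649 with 18, so Prrg4 was the 1 gene of the 11 that did not pass in the larger fit.

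**Figure D2:**
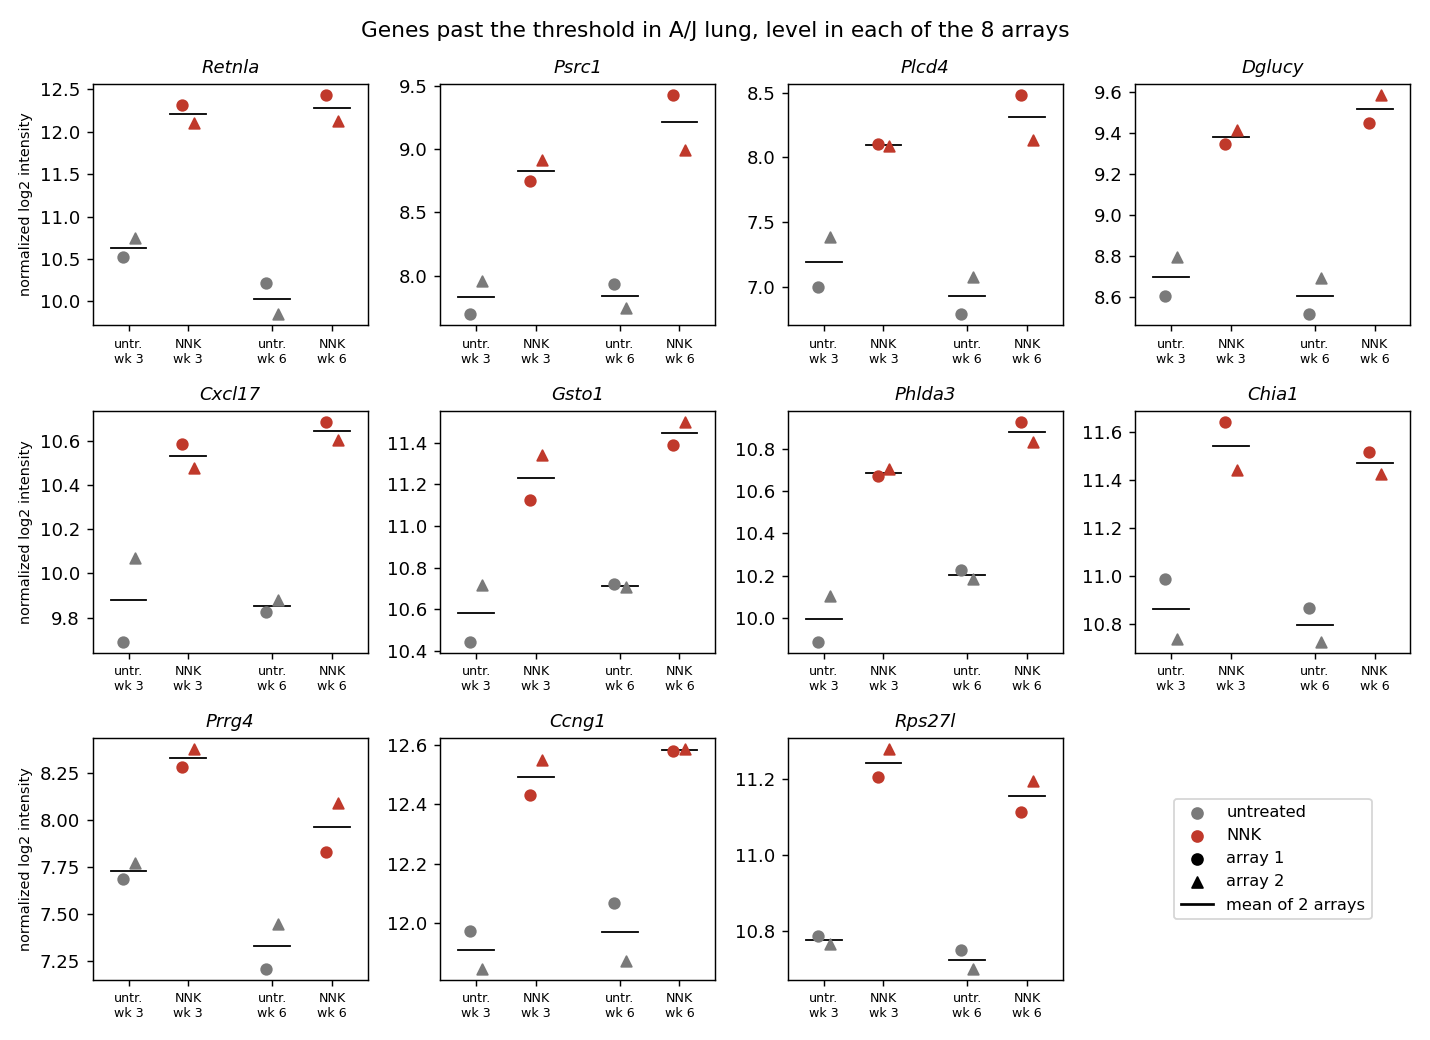
Normalized log2 intensity (vertical axis, own scale per gene) of the 11 genes past the threshold in each of the 8 arrays, grey for untreated and red for NNK, circles for array 1 and triangles for array 2, with lines at the mean of the 2 arrays of a group. In every gene the 4 NNK arrays lie above the 4 untreated arrays at their own week and across weeks.

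No gene passed in the downward direction with 8 arrays, and the 6 with the smallest p among genes lower at both weeks are given as values. Scgb3a1, a secretoglobin of club cells in the larger airways, measured 12.41, 13.03, 12.99 and 12.65 untreated and 11.52, 11.70, 12.23 and 11.83 with NNK. The groups did not overlap, and the difference was -0.95 (SE 0.16, adjusted p = 0.0959 with 8 arrays and 0.0239 with 18). With untreated week 9 arrays in place of the week 6 arrays that carried skin genes, the difference of Scgb3a1 was -0.41 (adjusted p = 0.703 and 0.309), which ended the 18-array call. That exchange sets NNK week 6 against untreated week 9, so treatment and week are mixed in it. In the week 3 arrays alone, where no week 6 array has a part, the difference of Scgb3a1 was -1.11, which did not pass. Whether skin content or week lowered the difference in the exchange was not tested. Chad, a matrix protein of cartilage, differed by -0.93 (adjusted p = 0.105 and 0.0261), and its untreated values were spread between 8.99 and 10.09. Tff2, a trefoil peptide of mucus, differed by -0.71 (adjusted p = 0.120 and 0.0154), with 7.97 to 8.57 untreated and 7.34 to 7.66 with NNK. Hilpda, a lipid droplet protein, differed by -0.43 (adjusted p = 0.143 and 0.0271). The same exchange gave -0.76 for Chad and -0.53 for Tff2, each with an adjusted p of 0.0515 in the 18-array fit and so no longer past it, and -0.69 for Hilpda, which then passed in both fits (0.0104 and 0.00161). Klf2, a transcription factor of blood vessel lining cells, and Fam71f2 differed by -0.38 and -0.35, each with an adjusted p of 0.0959, and passed in neither fit.

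The wider p53 program was read from a list of 35 known targets, of which 32 were tested. Of the 32, 4 rose in the 8-array fit (Psrc1, Dglucy, Phlda3 and Ccng1), 12 rose in the 18-array fit and 0 fell in either, beside 0.0736% and 0.722% of all genes that rose. Of the 32, 7 were lower. All NNK arrays lay above all untreated arrays in 16 of the 32, 50%, against 3.01% of all genes, and in 0 of the 32 was the reverse seen. The median change of the list was 0.26 over both weeks, 0.20 at week 3 and 0.24 at week 6, beside 0.02 for all genes. The list was written with earlier results of these data known, so its count is a description.

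Among the sensors of stress and growth, Sesn2, an inhibitor of the kinase complex mTORC1, measured 7.95, 8.56, 8.40 and 8.35 untreated and 8.87, 8.92, 9.24 and 9.04 with NNK, a difference of 0.70 (SE 0.12, adjusted p = 0.0989 with 8 arrays and 0.00594 with 18). Ddit4l, another mTORC1 inhibitor, differed by 0.65 (adjusted p = 0.184 and 0.0239). The related Sesn1 did not share this, with -0.06 (SE 0.09). Among genes of cell death, the death receptor Eda2r differed by 0.68, 0.29 at week 3 and 1.07 at week 6 (adjusted p = 0.223 with 8 arrays and 0.00197 with 18). Pidd1, a death-domain adaptor, differed by 0.49 (0.264 and 0.0351), and Tnfrsf10b, the TRAIL receptor, by 0.36 (0.289 and 0.0545). The best known killers of this pathway showed little: Bbc3 (Puma) differed by 0.02 (SE 0.08), Pmaip1 (Noxa) by -0.05 (SE 0.10) and Fas by -0.02 (SE 0.07). Their 4 NNK arrays overlapped the untreated ones throughout.

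Of the regulators, Zmat3, an RNA-binding protein, differed by 0.60 (adjusted p = 0.168 and 0.0154), Trp53inp1 by 0.40 (0.0959 and 0.00898) and Ei24 by 0.28 (0.184 and 0.0376). Mdm2, the ligase that degrades p53, measured 10.12 to 10.25 untreated and 10.30 to 10.56 with NNK. These groups did not overlap either, although the difference of 0.23 (SE 0.07) passed in neither fit (adjusted p = 0.377 and 0.102). Polk, a polymerase that copies past damaged bases, differed by 0.38 (0.184 and 0.00656). The excision repair genes Xpc (-0.10), Ddb2 (0.13) and Ercc5 (0.02) passed in neither fit. Btg2 and Plk2 were lower, by -0.49 and -0.29, without passing. The p53 members beyond the first 4 were chosen with their values in view. Cdkn1a and Bax were not analysed here.

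**Figure D3:**
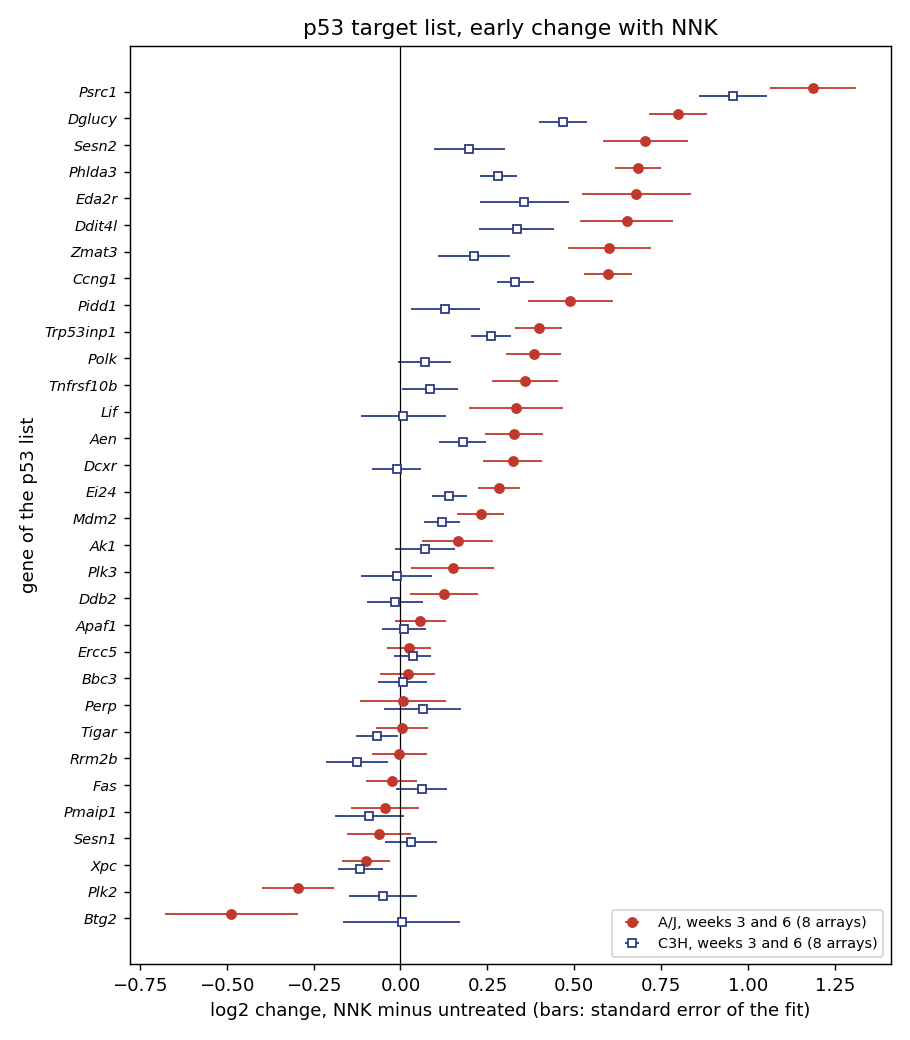
Log2 change with NNK (horizontal axis, bars: standard error of the fit) of the 32 tested genes of the p53 list, ordered by the A/J change, in A/J (red circles, 8 arrays) and C3H (open squares, 8 arrays). The A/J changes run from -0.49 (Btg2) to 1.19 (Psrc1), and the C3H changes of the leading genes are to the right of 0 and mostly smaller.

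The promoters of these genes were searched for the p53 half-site, a 10-base consensus, because 12 of the 32 p53 targets rose in the 18-array fit. The consensus is its own reverse complement, so 1 search covers both strands, and no other motif was searched. Sequences are RefSeq's, build GRCm38.p6, and the search covered the 250 bases before each start site. Of the 14953 genes tested, 11825 had a promoter entry and 896 of these, 7.58%, held a half-site. The 32 p53 genes had 24 entries, of which 7 held one (29.2%), and the 11 risers had 10 entries, of which 2 held one (20.0%), Ccng1 and Rps27l. Of the p53 genes with an entry, 4 of the 10 that rose in the 18-array fit (40%) and 3 of the 14 that did not (21.4%) held one. The half-sites are in capitals below, for the genes that passed in either fit and for the 3 that did not, Mdm2 (difference 0.23), Aen, an apoptosis-linked nuclease (0.33), and Sesn1 (-0.06). Ccng1 (minus strand, chr11:40755422-40755511) has it 185 to 176 bases before the start. Rps27l (plus strand, chr9:66946193-66946222 and chr9:66946296-66946325) has 2 separate half-sites before the second of its 2 annotated starts, the first 210 to 201 and the next 107 to 98 bases before. Ddit4l (plus strand, chr3:137623542-137623631), Ei24 (minus strand, chr9:36797335-36797424), Polk (minus strand, chr13:96519348-96519437), Mdm2 (minus strand, chr10:117710895-117710984), Aen (plus strand, chr7:78895897-78895986) and Sesn1 (plus strand, chr10:41887226-41887315) have 1 each. A match is a description of these letters and not a measured binding site.
Ccng1: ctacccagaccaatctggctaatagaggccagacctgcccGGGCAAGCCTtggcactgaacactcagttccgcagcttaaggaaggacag
Rps27l, first: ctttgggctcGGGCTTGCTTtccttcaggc
Rps27l, second: gggcttgttgAGACTTGTCCgggcgacacg
Ddit4l: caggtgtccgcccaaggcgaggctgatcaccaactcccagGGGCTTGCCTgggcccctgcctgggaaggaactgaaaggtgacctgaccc
Ei24: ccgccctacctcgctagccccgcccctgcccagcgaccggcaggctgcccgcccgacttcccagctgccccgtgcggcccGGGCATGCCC
Polk: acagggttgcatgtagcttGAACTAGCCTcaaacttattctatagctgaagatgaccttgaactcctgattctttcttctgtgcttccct
Mdm2: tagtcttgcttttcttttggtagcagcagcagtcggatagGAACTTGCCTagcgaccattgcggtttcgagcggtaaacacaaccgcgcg
Aen: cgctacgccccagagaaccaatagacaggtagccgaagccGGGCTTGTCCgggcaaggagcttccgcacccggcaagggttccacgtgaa
Sesn1: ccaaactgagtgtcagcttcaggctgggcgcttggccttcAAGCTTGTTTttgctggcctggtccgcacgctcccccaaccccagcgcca

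Genes of alkylation and base repair moved little. Of 17 tested genes of alkylation, base excision and mismatch repair, 0 passed in either fit, 15 were higher and the median change was 0.09. The 4 with the smallest p were Lig1, a DNA ligase, with 0.27 (SE 0.11), Pms2 and Msh6 of mismatch repair with 0.20 and 0.22, and Ogg1, which removes oxidised guanine, with 0.15; their adjusted p lay between 0.555 and 0.645. Of 11 genes of recombination and checkpoint signalling, 0 passed and the median was 0.12. Brca2, a recombination mediator, had groups that did not overlap, 7.13 to 7.60 untreated and 7.62 to 8.22 with NNK, with a difference of 0.47 (adjusted p = 0.404 and 0.0526), and its highest value came from NNK week 6 array 1. Chek2 differed by 0.37, Atr by 0.11 and Fanca by 0.13.

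Enzymes that activate or clear NNK showed no common direction, with a median of 0.01 over 14 tested genes, 9 higher and 5 lower. Aox3, an aldehyde oxidase, measured 11.46, 11.41, 11.29 and 11.27 untreated and 10.92, 10.97, 10.50 and 11.02 with NNK. The groups did not overlap, and the difference of -0.51 (SE 0.10) had an adjusted p of 0.175 with 8 arrays and 0.0239 with 18. The P450 genes Cyp2e1 (-0.48), Cyp2s1 (0.21) and Cyp2b10 (-0.15) had overlapping groups and adjusted p of 0.534 to 0.645. Antioxidant and detoxification targets of the factor NRF2 were mostly higher, 19 of 20 tested, with a median of 0.11. In 5 of the 20 the groups did not overlap, 25% against 3.01% of all genes, and 3 rose in the 18-array fit, where 0.722% of all genes did, and 0 in the 8-array fit. Gpx2, an epithelial glutathione peroxidase, measured 9.43 to 9.95 untreated and 10.19 to 10.40 with NNK and differed by 0.62 (SE 0.10, adjusted p = 0.0959 and 0.00781). Ephx1, microsomal epoxide hydrolase, differed by 0.47 (0.0959 and 0.00197) and Nqo1, a quinone reductase, by 0.66 (0.175 and 0.0455; 0.0570 with 18 arrays and untreated week 9 in place of week 6), while Gclc, of glutathione synthesis, differed by 0.24 and passed in neither.

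Ciliated airway cells carry motile cilia built from a shared set of axoneme genes under the factor Foxj1. Of 33 tested ciliated cell genes, 31 were higher with NNK, 7 rose in the 18-array fit, where 0.722% of all genes did, and 0 in the 8-array fit, and the median change was 0.28 (0.27 at week 3 and 0.34 at week 6). In 5 genes, 15.2%, all NNK arrays lay above all untreated arrays, against 3.01% of all genes. Lrrc23, a radial spoke component, measured 8.36, 8.78, 8.49 and 8.48 untreated and 9.15, 9.09, 9.10 and 9.10 with NNK. The 4 NNK arrays were nearly equal, and the difference was 0.58 (SE 0.09, adjusted p = 0.0959 with 8 arrays and 0.00379 with 18). Dynlrb2, a dynein light chain, differed by 0.49 (0.0959 and 0.00562), with 9.23 to 9.49 untreated and 9.62 to 10.01 with NNK. Capsl differed by 0.53 (0.0959 and 0.00656), and Cfap126 by 0.40 (0.106 and 0.0621). Foxj1 itself, named after its values had been seen, measured 9.07, 9.43, 9.27 and 9.23 untreated and 9.61, 9.62, 9.67 and 9.59 with NNK, a difference of 0.37 (0.198 and 0.0321). Tppp3 and Hydin were the 2 genes that were lower, by -0.11 and -0.05. The list mean was 8.98, 9.23, 8.91 and 8.89 in untreated arrays and 9.33, 9.38, 9.09 and 9.31 with NNK, so NNK week 6 array 1 lay below untreated week 3 array 2.

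Secretory cells of the airway changed unevenly. Of 14 club cell genes, Scgb3a1 fell and Upk3a rose in the 18-array fit, where 0.154% of all genes fell and 0.722% rose, and the median was -0.04. The fall of Scgb3a1 did not pass with untreated week 9 in place of week 6, as given above. Upk3a, a uroplakin that marks a subset of club cells, measured 7.78, 7.57, 8.06 and 8.17 untreated and 8.63, 8.50, 8.34 and 8.40 with NNK. Its groups were apart at both weeks, by 0.89 at week 3 and 0.25 at week 6 (adjusted p of the mean 0.202 and 0.00147). Lypd2 and Pon1 differed by -0.59 and -0.49 and passed in neither fit. Of 10 goblet cell genes, 8 were lower, Tff2 fell in the 18-array fit (not past the threshold with the exchange to week 9), and the median was -0.17. Muc5b, a gel-forming mucin, measured 10.54 to 11.19 untreated and 9.70 to 10.38 with NNK, a difference of -0.67 (SE 0.16, adjusted p = 0.235 and 0.177). Bpifb1, an antimicrobial protein of the same cells, differed by -0.72 (0.279 and 0.109) and the goblet gene Agr2 by 0.49 (0.555 and 0.306), so the list had members in both directions. Of 9 airway defence genes, Ltf was higher by 1.28 and Pigr, the receptor that carries IgA into the airway, lower by -0.38 (0.175 and 0.125), each with groups that did not overlap. Wfdc2 differed by 0.29 (0.362 and 0.120). Alveolar type 2 genes hardly moved apart from Chia1: the median over 21 genes was 0.06, with Scd1 at 0.19, Abca3 at 0.12 and Napsa at 0.14.

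Genes of cholesterol synthesis were higher in all 19 tested cases, with a median of 0.29 (0.31 at week 3 and 0.29 at week 6), while 0 passed in the 8-array fit and 1, Sc5d, in the 18-array fit, where 0.722% of all genes rose. Sc5d, a late enzyme of the pathway, measured 10.61, 10.68, 10.63 and 10.58 untreated and 11.01, 11.04, 10.93 and 10.73 with NNK, a difference of 0.30 (SE 0.07, adjusted p = 0.228 and 0.0261). With untreated week 9 in place of week 6 the 18-array adjusted p of Sc5d was 0.0606. Lss, which closes the sterol ring, differed by 0.43, Msmo1 by 0.33 and Ebp by 0.33; none of these 3 passed in either fit. In 4 of the 19 genes, 21.1%, all NNK arrays lay above all untreated arrays, against 3.01% of all genes. The list mean was 9.48 to 9.74 in untreated and 9.70 to 9.96 in NNK arrays, with NNK week 6 array 2 the lowest of its group and untreated week 3 array 2 the highest of the other. Targets of fasting and PPAR signalling had a median of -0.30 at week 3 and 0.01 at week 6 over 7 genes. Of these, 2 fell in the 18-array fit, where 0.154% of all genes did. Angptl4, a lipase inhibitor, measured 9.78 and 9.97 untreated against 8.30 and 8.27 with NNK at week 3, and 9.72 and 9.25 against 9.82 and 9.32 at week 6. Its mean difference was -0.75 (0.555 and 0.0147), and the 18-array call does not need the weeks to agree. Cpt1a, which brings fatty acids into mitochondria, differed by -0.63 at week 3 and 0.01 at week 6. The difference between weeks did not pass for either gene (1.68 for Angptl4, adjusted p = 0.163, and 0.65 for Cpt1a, adjusted p = 0.240). Of the 13 immediate early genes, which respond within minutes to stimulation, 12 were lower and 0 passed in either fit. Their median was -0.50 (-0.69 at week 3 and -0.23 at week 6), with Fosb at -0.78, Jun at -0.40, Zfp36 at -0.50 and Egr3 at -0.23.

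Immune cell genes varied with single arrays. Of 9 genes of alternative macrophage activation, Retnla rose in the 8-array fit, and Retnla and Ccl8 rose in the 18-array fit. Of all genes, 0.0736% and 0.722% rose in these fits. The list median was -0.002 at week 3 and 0.41 at week 6. Chil3, a chitinase-like lectin of activated macrophages, measured 8.58, 8.67, 8.60 and 8.48 untreated and 9.10, 8.99, 9.31 and 9.20 with NNK. Although these groups were well apart, the difference of 0.57 (SE 0.08) had adjusted p of 0.0638 and 0.0573. Ccl8, a chemokine, differed by 0.76 (0.105 and 0.00656) and Ccl17 by 0.20. Of 14 genes of resident alveolar macrophages, 10 were lower, the median was -0.13, and Krt79 fell in the 18-array fit, where 0.154% of all genes did. Krt79 fell by 0.30, from 9.96 to 10.12 untreated to 9.65 to 9.85 with NNK. Pparg, which these macrophages need, differed by -0.19, Lpl by -0.19 and Fabp1 by -0.22, with adjusted p of 0.457 to 0.536 in the 8-array fit.

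Of 14 neutrophil genes, 13 were higher, but the median was -0.32 at week 3 and 1.19 at week 6. Ltf, lactoferrin, which airway glands also make, was the 1 that rose in the 18-array fit, where 0.722% of all genes did. It measured 8.39, 9.08, 9.44 and 8.60 untreated and 9.65, 10.26, 10.28 and 10.45 with NNK, a difference of 1.28 (SE 0.22, adjusted p = 0.0959 and 0.0213). Retnlg (0.88), Hdc (0.46) and Mmp8 (0.55) passed in neither fit, and Mmp8, a collagenase, stood at 9.08 in NNK week 6 array 1 against 7.61 to 7.71 in the other NNK arrays. Proliferation genes showed the same array: all 31 tested were higher, with a median of -0.05 at week 3 and 0.64 at week 6. The list mean was 8.65, 8.54 and 8.62 in the other 3 NNK arrays and 8.35 to 8.84 in untreated arrays, against 9.54 in that array. Cdk1, the mitotic kinase, reached 9.57 there and 8.24 to 8.45 in the others, and differed by 0.67 (0.598 and 0.257). Rrm1, of nucleotide synthesis, differed by 0.33 (0.414 and 0.0446). It was the 1 member that rose in the 18-array fit, where 0.722% of all genes did. Mcm7 and Rrm2 differed by 0.27 and 0.58. The part of that array in these differences at week 6 is seen in its own values; the cause was not tested.

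B and plasma cell genes were lower in all 20 tested cases, with a median of -0.31, and 0 passed in either fit. Their list mean was 9.17 to 9.55 in untreated arrays, 9.30, 9.17 and 9.44 in 3 NNK arrays and 8.52 in NNK week 6 array 1, below the lowest of the other 28 arrays, 8.64. Pou2af1, a B cell coactivator, measured 8.07 in that array and 8.87 to 9.22 in the other NNK arrays. Interferon response genes had a median of 0.07 over 24 genes, with Irf7 at 0.45 and Usp18 at 0.21, and 0 passed. Blood endothelial genes had a median of -0.07 over 25, 17 of them lower, with Ednrb at -0.31 and Emcn at -0.19, and 0 passed.

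**Figure D4:**
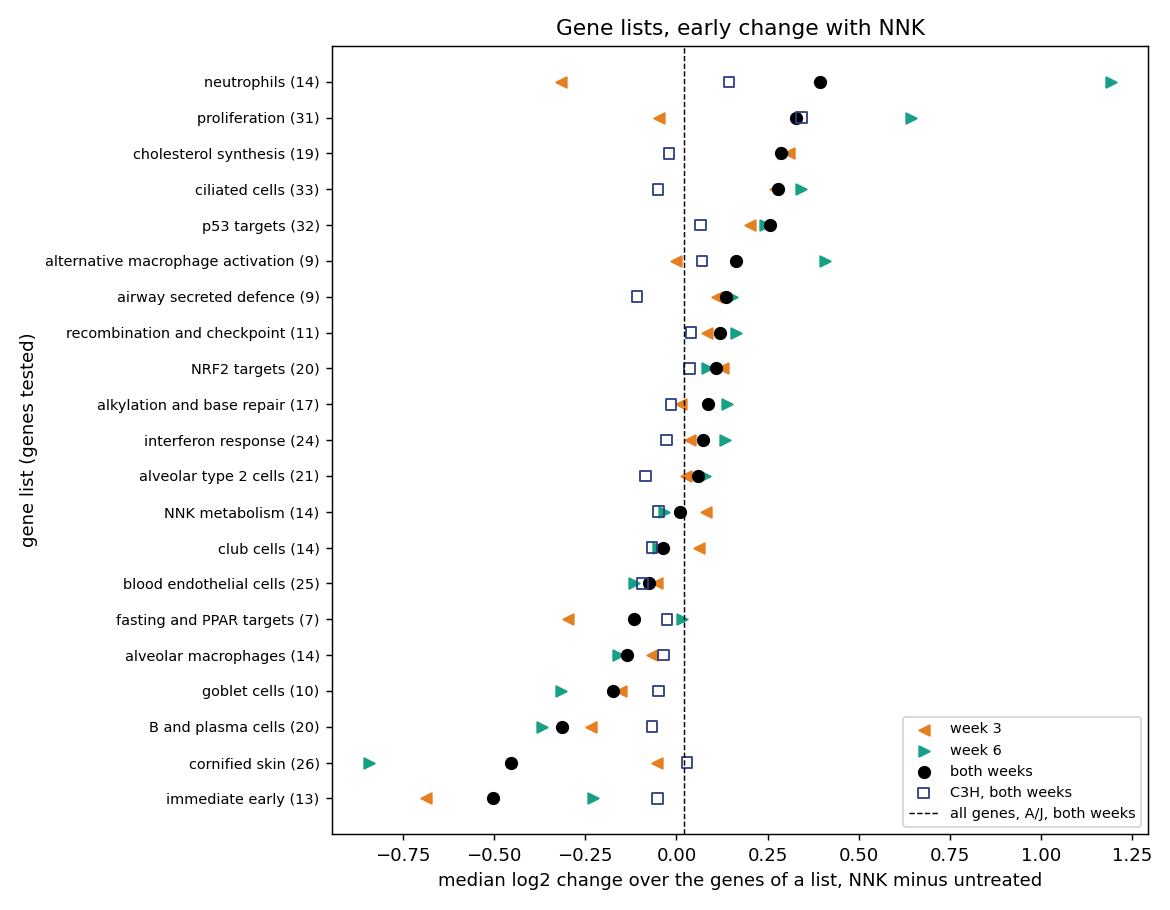
Median log2 change with NNK (horizontal axis) over the tested genes of 21 lists, at week 3, week 6, both weeks and in C3H; the dashed line is the median of all 14953 genes in A/J, 0.02. p53, ciliated and cholesterol genes lie to the right at both weeks, proliferation and neutrophil genes at week 6, and cornified skin genes lie far to the left at week 6.

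Genes of cornified skin, the dead outer layer of epidermis, were high in the untreated week 6 arrays and not in the NNK arrays. Lor, the main protein of the cornified envelope, lay between 6.86 and 7.22 in the 4 week 3 arrays of both treatments. At week 6 it measured 12.74 and 13.59 untreated and 6.82 and 6.93 with NNK. Krt1, a keratin of differentiating epidermis, measured 9.53, 9.43, 14.37 and 14.77 untreated and 9.42, 9.17, 9.22 and 9.20 with NNK. Krt10, its partner keratin, measured 8.42, 8.68, 11.54 and 12.10 untreated and 8.32, 8.21, 8.27 and 8.24 with NNK. In both untreated week 6 arrays all 3 genes were thus far above every other array of the comparison. Elsewhere in the series, 1 untreated A/J array of week 0 had Lor at 13.65 with Krt1 at 9.27 and Krt10 at 8.10, and in the other 33 arrays the 3 genes reached at most 7.40, 9.72 and 8.68. Of the 26 tested skin genes, 21 were higher in both untreated week 6 arrays than in the other 6 arrays, which held for 1558 of all 14953 genes, 10.4%. The 21 include Lor, Krt1 and Krt10, which were flagged beforehand as high in these arrays. The filter on dim genes, which kept 26 of the 35 skin genes on the array, also used these arrays. A dim skin gene could be kept for being high there, so the count is a description and no test against the 10.4%. The list median was -0.05 at week 3 and -0.84 at week 6, and 5 members fell in the 18-array fit, where 0.154% of all genes did.

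With untreated week 9 arrays in place of those of week 6, the early difference of Krt1 was 0.02 instead of -2.78. The same exchange gave 23 genes past the threshold with 8 arrays, 19 higher and 4 lower, including 10 of the 11, and 212 with 18 arrays, including all 11. With the mean of the skin list as a covariate, 3 genes passed, 1 of them among the 11, and 38 in the 18-array fit. That mean was 9.60 and 9.96 in the untreated week 6 arrays and 8.08 to 8.24 in the other 6. The covariate thus nearly marks the untreated week 6 group, and the 8-array fit cannot separate skin genes from that group. Its change for Retnla, 1.56, was close to that of week 3 alone, 1.58, so the lost calls are no measure of skin content. The cause of the high skin genes was not tested.

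Taken by week, 0 genes passed at week 3 in the 8-array fit with a mean per group, and 968, 6.47%, had an unadjusted p under 0.05. In the 18-array fit 14 passed at week 3, 0.0936%, with 11 higher (0.0736%) and 3 lower (0.0201%), among them Retnla with 1.58, Plcd4 with 0.91, Phlda3 with 0.69, Dglucy with 0.68 and Ccng1 with 0.58. Without untreated week 3 array 1 the week 3 count with 8 arrays was 25, 21 of them lower. At week 6, 25 genes passed, 0.167%. Of these, 15 were lower (0.1%) and 11 of the 15 were on the skin list; the other 4 were Crct1, Cnfn, Il1f5 and Ripply2. The 10 that were higher (0.0669%) were Retnla (2.25), Plcd4 (1.38), Psrc1 (1.37), Mybl1 (1.08), Eda2r (1.07), Aoc1 (1.04), Ms4a7 (1.03), Dglucy (0.92), Gpr65 (0.74) and Chil3 (0.71). Leaving out 1 array at a time moved this count to between 11 and 123: to 60 without either untreated week 3 array, to 15 and 16 without untreated week 6 arrays 1 and 2, to 11 without either NNK week 3 array, and to 16 and 123 without NNK week 6 arrays 1 and 2. The number was 13 with the array number as a block.

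The change with NNK differed between the weeks in 9 genes, 0.0602%. Of these, 8 (0.0535%) were lower at week 6, 7 of them on the skin list and the other Crct1, led by Lor with a difference of -6.10, Krt1 with -5.17 and Hrnr, hornerin, with -5.12 (adjusted p = 0.000214, 3.82e-05 and 0.000101). The 1 that was higher (0.00669%) was Ms4a7, a membrane protein of macrophages, which measured 8.19 and 8.26 untreated and 7.97 and 8.01 with NNK at week 3, and 7.46 and 7.52 against 8.43 and 8.61 at week 6. Its difference between weeks was 1.26 (adjusted p = 0.0175), most of it from a lower untreated level at week 6. The count of 9 became 118 without untreated week 3 array 1, 5 without untreated week 3 array 2, 5 without NNK week 3 array 1 and 46 without NNK week 6 array 2. Over all 14953 genes the changes of the 2 weeks, which share no array, had a Pearson correlation of -0.01 (Spearman -0.01), given as a description across genes, which are not independent.

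**Figure D5:**
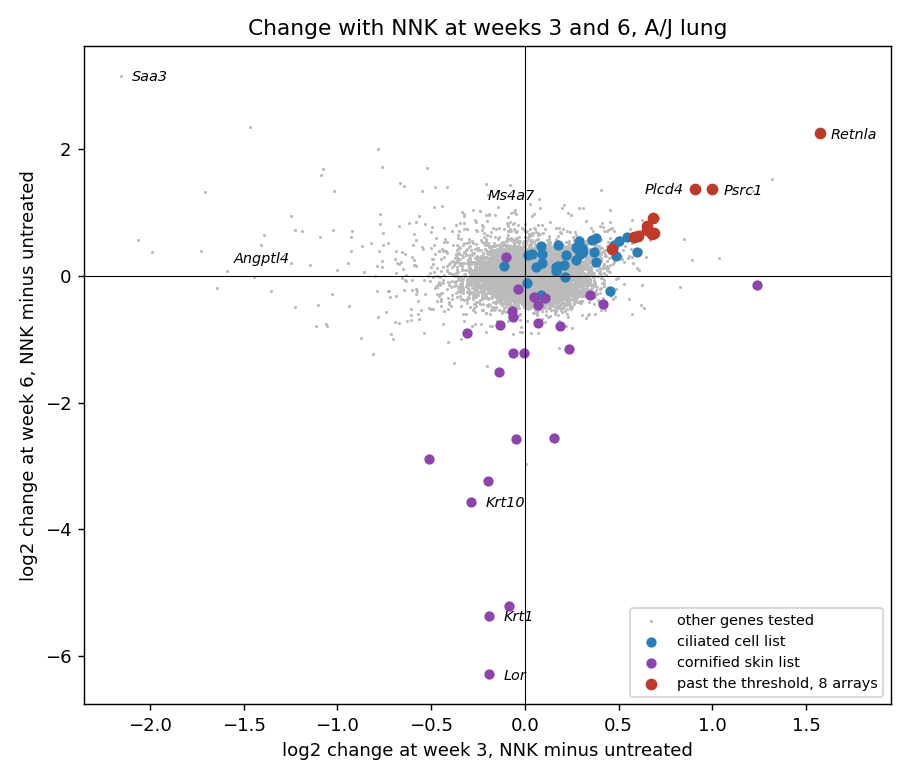
Log2 change with NNK at week 3 (horizontal axis) and week 6 (vertical axis) of each gene tested, 2 arrays per group and week. The 11 genes past the threshold (red) and most ciliated cell genes (blue) lie at the upper right, cornified skin genes (purple) fall along the vertical axis down to -6.29 for Lor, and Saa3, named after its values had been seen, lies at the upper left.

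In C3H lungs of the same weeks, measured on 8 other arrays and tested against the spread of 16 arrays of both strains, 3 genes passed, 0.0201%, with 2 higher (0.0134%) and 1 lower (0.00669%): Psrc1 rose by 0.96 (adjusted p = 0.00175), Dglucy rose by 0.47 (0.0449), and Acoxl, an acyl-CoA oxidase relative, fell by 0.46 (0.0128). All 11 genes of A/J were higher with NNK in C3H as well, by values from 0.09 for Prrg4 to 0.96 for Psrc1, each smaller than in A/J. The 11 were chosen by passing in early A/J lung, a choice that favours larger values there than in any other set of arrays, so this order is a description. The count of 3 comes from a 16-array fit and the 11 from an 8-array fit, and they are not set against each other. The difference between the strains passed for 0 genes of 14953 (limma, Benjamini-Hochberg), and 1649, 11%, had an unadjusted p under 0.05. For Retnla it was 1.44 (1.92 in A/J, 0.47 in C3H, adjusted p = 0.333), for Phlda3 0.40 (0.68 and 0.28, adjusted p = 0.259), for Chia1 0.45 (0.67 and 0.22, adjusted p = 0.272) and for Psrc1 0.23 (1.19 and 0.96, adjusted p = 0.543). The median change of the p53 list was 0.26 in A/J and 0.07 in C3H, that of ciliated genes 0.28 and -0.05, and that of cholesterol genes 0.29 and -0.02. Proliferation genes had 0.33 and 0.34. The largest gaps among the ciliated genes named above were those of Lrrc23, 0.58 and -0.15 (difference 0.73, adjusted p = 0.184), and Dynlrb2, 0.49 and -0.21 (0.70, adjusted p = 0.259). Without untreated A/J week 3 array 2, the array with high mesothelial genes, 241 genes passed for the strain difference, 181 of them higher in A/J. The median residual SD was 0.107 in the A/J and 0.0743 in the C3H arrays.

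At weeks 9 and 12 in A/J, on 8 further arrays, all 11 genes were again higher with NNK. Against the spread of 16 A/J arrays, early and late, 22 genes passed, 0.147%, with 20 higher (0.134%) and 2 lower (0.0134%). The late change was 1.74 for Retnla, 0.60 for Psrc1, 0.57 for Chia1, 0.54 for Plcd4, 0.51 for Prrg4, 0.47 for Cxcl17, 0.38 for Dglucy, 0.35 for Phlda3, 0.34 for Gsto1, 0.27 for Rps27l and 0.26 for Ccng1. Each was below its early value, which the choice of the 11 by their early test also favours, and 4 of the 11 passed late in the 16-array fit: Retnla (adjusted p = 0.000700), Phlda3 (0.0238), Chia1 (0.0369) and Cxcl17 (0.0403). The early minus late difference passed for 0 genes, with 490, 3.28%, at an unadjusted p under 0.05. Ltf and Ccl8, which passed early only with 18 arrays, had late changes of 1.44 (adjusted p = 0.0127) and 0.91 (0.00596). The median of the p53 list was 0.17 late, that of ciliated genes 0.18 and that of cholesterol genes 0.18. Immediate early genes, lower early, had a late median of 0.34.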

How the data were processed

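The authors deposited 1 linear intensity per probe set and array, which the submitters' processing notes attribute to the PLIER method of the Affymetrix Expression Console; versions, settings and build are not given in the sources used here. All 36 arrays were turned to log2(intensity + 16) and quantile-normalized. Of 35556 probe sets, 21789 had 1 gene symbol, 1621 several and 12146 none; the brightest was kept for each of 19938 genes, and genes whose mean level was below the 25th percentile were dropped, which left 14953. R 4.3.3 and limma 3.58.1 (lmFit, eBayes, Benjamini-Hochberg at 0.05) fitted treatment with week as a block on 8 arrays. Weekly, strain and period differences were contrasts or interaction terms. Lists are described by counts and medians, with no set test. Named were all genes past the threshold and the 6 smallest p among genes lower at both weeks. From the lists described, members among the 4 smallest p were named, for some lists only part of the 4. The top 3 per direction of other contrasts were named too, and others are said to be chosen later. The members and lists were chosen with earlier results of these data known. The labels state no pairing of same-numbered arrays, and correlations of their deviations between groups ran from -0.144 to 0.272. The script was tested on simulated data. The number of arrays limits the precision, and arrays give no read depth.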

Additional observations from a re-analysis of the deposited data

Results flagged for a closer look

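In 4 of 82 groups of 4 arrays tested, 1 array lay far from the other 3 by Dixon's criterion; chance gives about 1 in 20. Gsto1 stood at 10.44 in untreated week 3 array 1, with the other untreated arrays between 10.7 and 10.72. Plcd4 stood at 8.485 in NNK week 6 array 1, with the other NNK arrays between 8.091 and 8.137. In the same array the mean level of the proliferation genes was 9.541 (others 8.542 to 8.649) and that of the NNK metabolism genes 10.77 (others 10.97 to 10.98).

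The change with NNK differed between week 6 and week 3 in 9 genes by the test of the difference itself (limma). The skin genes (Crct1 was not on the list) were lower at week 6: Lor by -6.10, Krt1 by -5.17, Hrnr by -5.12, Krt10 by -3.28, Lce1e by -3.04, Crct1 by -2.97, Ivl by -1.39 and Lce1h by -1.21. All 8 were high in both untreated week 6 arrays. Ms4a7 was higher by 1.26.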

How the results depend on the processing

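The count of 11 was also 11 with 8-array quantile normalization, a pseudocount of 1 or no week block, 14 with a pseudocount of 64 and 12 with the mean of a gene's probe sets. It was 18 on the deposited scale, 4 with no filter on dim genes, 38 with a filter at the 50th percentile, 60 with trended robust variances, 60 with array weights, 22 with 4 group means, 131 with 18 A/J arrays, 488 with 36 arrays, 23 with untreated week 9 in place of week 6, 3 with the skin covariate and 7 with the array number as a block, although the numbers do not pair. With week 3 arrays alone it was 2, and with 18 arrays and untreated week 9 in place of week 6 it was 212; these 2, and in the 18-array fit the skin covariate, 38, and leaving out 1 early array, 44 to 559, were chosen after seeing the data. Leaving out 1 array with 8 arrays gave 0 to 94. Retnla passed in 5 of 8 such fits, Phlda3 and Psrc1 in 2 and the others in 1. The week 3 count of 0 became 14 with 18 arrays and 0 to 25 with 1 array left out. The week 6 count of 25 became 170 with 18 arrays, 13 with the array number as a block and 11 to 123 with 1 array left out; the 170 of the 18-array fit became 120 with untreated week 9 in place of week 6, also chosen after seeing the data. The count of 9 between weeks became 5 to 118. The strain count of 0 became 8 with group means and 0 to 241 with 1 of the 8 A/J arrays left out (no C3H array was left out), and the period count of 0 became 6 with group means. The array number as a block changed no other call count by over 1.5 times. With untreated week 9 in place of week 6, Krt1 turned to 0.0204, Lce1j to 0.012 and Msh6 to -0.0087, with 8 and with 18 arrays, and Krt1 at week 6 turned to 0.23. Mmp8 turned to -0.16 with the skin covariate and -0.19 with week 3 alone. The cause was not tested, beyond the arrays left out or exchanged.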

Other observations

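Among genes outside the lists, chosen after their values were seen, the 18-array fit called Aoc1, a diamine oxidase, with 0.75, Ces1g, a carboxylesterase, with 0.73, Alkal1, a ligand of the receptor ALK, with 0.69 and Mybl1, a transcription factor, with 0.64. Ptgs2, the inducible cyclooxygenase, was higher by 0.48 early and 0.69 late, and Muc4, a membrane mucin, by 0.50 early and 0.69 late. Nrg1, a growth factor of the EGF family, was higher by 0.59.

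Probe sets with no or several gene symbols were tested by themselves: of 10325, 0 passed (limma) and 430 had an unadjusted p under 0.05.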
